A study of Bos taurus with 23 samples.

Results

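The 100 genes whose share of the library changed least over the cultures of a bovine cell study are described here. Levels are given as CPM, a gene's count times 1000000 over the total count of its library. A gene was ranked if it reached at least 20 CPM in all 23 libraries. Of 16094 genes in the count table, 3337 did so, and 3334 were ranked after 4 gene IDs, of which 3 were over that floor, had been left out. The 100 genes were chosen by the standard deviation (SD) of log2 CPM over the 23 libraries, as those with the smallest, which left 3234 ranked genes outside. Genes are numbered by that rank, 1 being the smallest SD. The choice used every library and every group, so the small spread of these genes is not a finding, and their differences between groups are given as a description.

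The cells were mesenchymal stem cells grown from the umbilical cord of cattle of the Holstein breed, read by bulk MARS-Seq, a method that counts tags from the 3′ end of poly(A) RNA. An immortalized line was sampled after 165 days (n = 5) and 21 days (n = 9) of culture. It was set against primary cells, without immortalization, sampled after 50 days (n = 6) and 12 days (n = 3). The line, WJ-SV40, came from a transient transfection with a plasmid that carried the large T antigen of the virus SV40, a protein that blocks the tumour suppressors p53 and RB. The medium in all groups was low-glucose DMEM, to which fetal bovine serum was added. Library names carry tags whose meaning the labels do not give, namely 2D in the 165-day line, AM in 5 and FBS in 4 libraries of the 21-day line, WJ in 3 and BUC in 3 of the 50-day primary cells, and WJ in 2 and BUC in 1 of the 12-day ones. The names of primary libraries also carry a P number, 3 or 4 at 12 days and 10, 15 or 18 at 50 days, with 1 WJ and 1 BUC library at each of the 50-day numbers, so time in primary cells goes with the P number. Time in the line goes with the tag, 2D at 165 days and AM or FBS at 21 days, and the effects of time and tag cannot be told apart. There was 1 line, so its 14 libraries are not 14 lines, and separate cultures or animals are not marked in the labels beyond the words Male, F and Mix in the names of 3 primary libraries. Differences between libraries within a group may therefore be partly technical.

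Mesenchymal stem cells are stromal cells that grow attached to plastic and can give bone, cartilage and fat cells. Genes with steady expression are used as references in RNA work, where the level of another gene is read as a ratio to theirs. Many reference genes in common use belong to basic cell functions such as translation, energy metabolism or the cytoskeleton. Sequencing reads give shares of a library and not amounts per cell, so a gene's stability is always stability relative to a chosen scale. In bulk samples fewer cells of a type and less RNA per cell cannot be told apart.

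The count table names genes by Ensembl ID, and none of the 16094 IDs (0 matched) could be paired with a symbol in the reference table used. What the 100 genes encode is therefore not described, and the labelled cell type was not checked against its markers. Library totals ran between 1840606 and 15486372 counts. They were 3753231 to 13540302 in the 165-day line, 4141228 to 11382368 in the 21-day line, 1840606 to 5920394 in primary cells at 50 days and 8954270 to 15486372 at 12 days. The scaling factor TMM, which trims the genes that differ most before it sets libraries level, was 0.882 to 1.00 in the line at 165 days and 1.13 to 1.27 at 21 days, against 0.801 to 0.884 in primary cells at 50 days and 0.907 to 0.930 at 12 days. The factors of the 21-day line were above those of all other groups, and those of the 165-day line overlapped with both primary groups. A level on library totals and a level on the TMM scale therefore differ by an amount that goes with the group. Libraries of the line and of the 50-day primary cells fell into sets within their group. Chi-square per degree of freedom between the counts of 2 libraries was 29.6 to 44.9 between replicates 1 and 2 and the other 3 libraries of the 165-day line, against 9.43 between those 2 and 3.36 to 5.35 among the other 3. In the 21-day line it was 26.3 to 53.9 between replicates 4, 5, 7 and 9 and the other 5, against 4.70 to 24.5 among those 4 and 2.85 to 14.8 among the other 5. In the 50-day primary cells it was 36.4 to 63.6 between WJ and BUC libraries, against 6.66 to 9.23 among WJ and 15.7 to 16.1 among BUC. The sets of the 21-day line cross the tags AM and FBS. Results are also given without replicates 1 and 2 of the 165-day line or without those 4 of the 21-day line, alternatives added after seeing the data.

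The SD of log2 CPM of the 100 genes ran between 0.117 and 0.214 with a median of 0.188, against a median of 0.467 for the ranked genes outside. The highest library had 1.60 times the CPM of the lowest in the median of the 100 genes, against 3.08 times outside. This ratio was 1.34 at its smallest, for rank 5, and 1.91 at its largest, for rank 83. It was under 1.5 for 14 of the 100 genes, which were all the ranked genes under that value, and under 2 for 377 ranked genes in all. The limit of the list did not fall in a gap. Rank 100 had an SD of 0.21419 and the next gene, the first outside, an SD of 0.214324, so the last members are not set apart from the first genes outside.

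**Figure D1:**
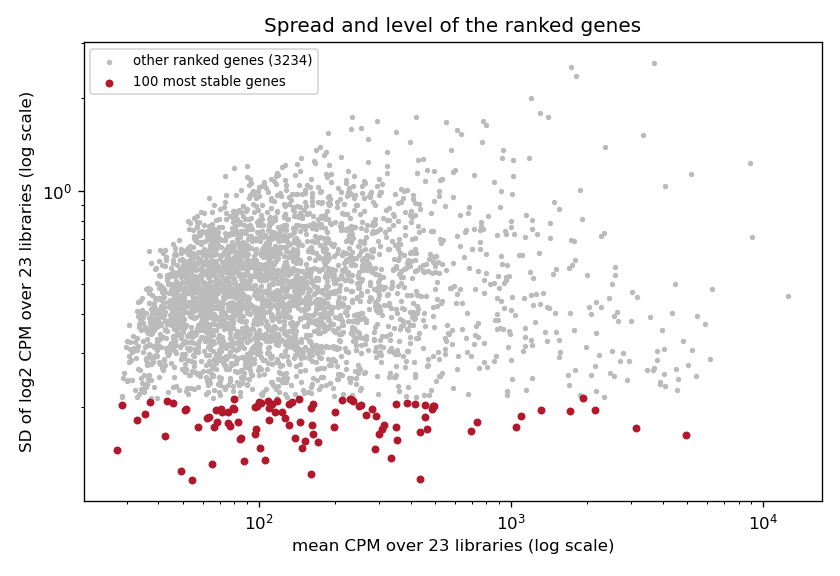
SD of log2 CPM over the 23 libraries against mean CPM, both on log axes, with 1 point per ranked gene. The 100 genes (red) lie along the lower edge of the 3334 ranked genes, between 27.4 and 4950 mean CPM, and no gap parts them from the 3234 others (grey).

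The 100 genes spanned most of the range of abundance. Their mean level was 27.4 to 4950 CPM with a median of 138 CPM, against a median of 107 CPM outside. By mean level, 9 of them lay between 20 and 50 CPM, 27 between 50 and 100, 26 between 100 and 200, 28 between 200 and 500, 2 between 500 and 1000 and 8 above 1000 CPM. When all ranked genes were put into 4 equal classes of level, the list held 16, 23, 24 and 37 genes, counted upwards from the lowest class. Of the 100 most abundant ranked genes 5 were on the list, which holds 100 of all 3334 ranked genes.

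The most abundant member, rank 20, averaged 4777 ± 383 CPM in the line at 165 days and 4583 ± 499 CPM at 21 days, against 5456 ± 333 CPM in primary cells at 50 days and 5325 ± 134 CPM at 12 days (SD, n = 5, 9, 6 and 3). It was lower in the line on average, while its range of 3844 to 5297 CPM in the line overlapped with 4907 to 5858 CPM in primary cells. The least abundant member, rank 9, averaged 29.3 ± 1.98 CPM in the line at 165 days and 27.1 ± 1.69 CPM at 21 days, against 26.6 ± 4.29 CPM in primary cells at 50 days and 26.9 ± 3.41 CPM at 12 days (SD, n = 5, 9, 6 and 3). Its lowest count was 64, and the error of counting alone would give 65.6% of its variance. That share was 8.59% in the median of the 100 genes, against 1.76% outside, and was over 50% for 2 of the 100 genes, ranks 9 and 1. Counting error is taken as if every count were an independent molecule, and it limits how far such genes can be ranked.

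Rank 1, ENSBTAG00000010598, had the smallest SD. Its level was 56.3, 49.0, 54.4, 53.0 and 50.9 CPM in the line at 165 days and 52.7 to 61.9 CPM with a median of 57.7 CPM at 21 days. In the 50-day primary cells it was at 44.0 to 57.1 CPM with a median of 51.6 CPM, and in the 12-day ones at 55.1, 54.2 and 54.4 CPM. The ranges overlapped in every pair of groups, and the lowest level lay in a 50-day primary library, replicate 2. Its lowest count was 93, and counting error alone would give 53.3% of its variance.

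Rank 2, ENSBTAG00000001988, was more abundant. Its level was 398, 406, 395, 410.1 and 413 CPM in the line at 165 days and 409 to 500.2 CPM with a median of 459 CPM at 21 days. Primary cells at 50 days had 377 to 432 CPM with a median of 412 CPM, and those at 12 days had 474, 511 and 448 CPM. The 3 libraries at 12 days were above all of the 5 at 165 days and all of the 6 at 50 days, so even this gene did not hold 1 level in all cultures. Differences between the 4 groups took 68.4% of its variance.

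**Figure D2:**
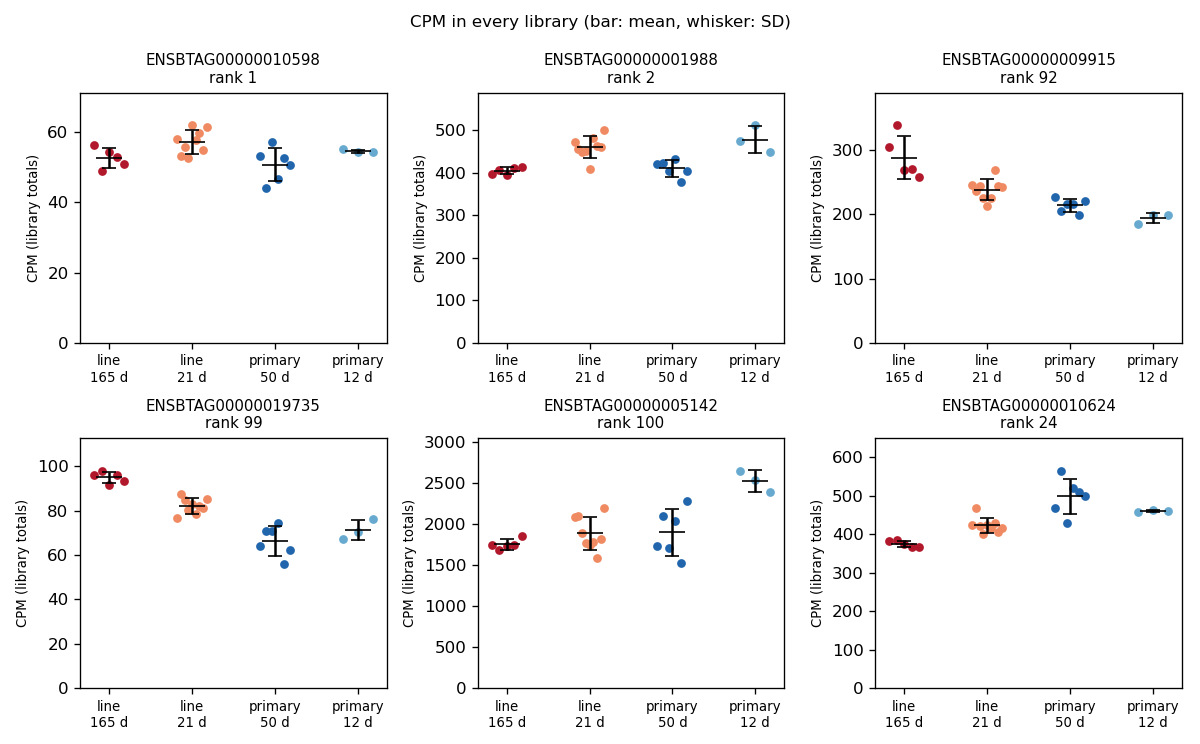
CPM on library totals in every library for 6 of the 100 genes, by group (points: libraries; bar and whisker: mean and SD), each axis starting at 0. Ranks 1 and 2 have the smallest SD, ranks 92 and 99 the largest log2 fold changes up and ranks 100 and 24 the largest down in the line on library totals, 0.36, 0.36, -0.27 and -0.27.

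In each library most of the 100 genes stayed near their own mean. Between 73 and 95 of the 100 lay within 0.25 log2 units of it, which is their count in the lowest and the highest library. The median deviation of the 100 genes was -0.08 to 0.08 log2 units over the 23 libraries on library totals. Over all ranked genes that median averaged 0.08 in the line at 165 days and 0.14 at 21 days, against -0.22 in primary cells at 50 days and -0.03 at 12 days. In the 50-day primary cells, where all ranked genes stood lowest, the median deviation of the 100 genes averaged -0.04. Together they held 3.45 ± 0.111% of all counts in the line at 165 days and 3.38 ± 0.0810% at 21 days, against 3.45 ± 0.162% in primary cells at 50 days and 3.53 ± 0.0414% at 12 days (SD, n = 5, 9, 6 and 3), and between 3.23% and 3.67% over single libraries.

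**Figure D3:**
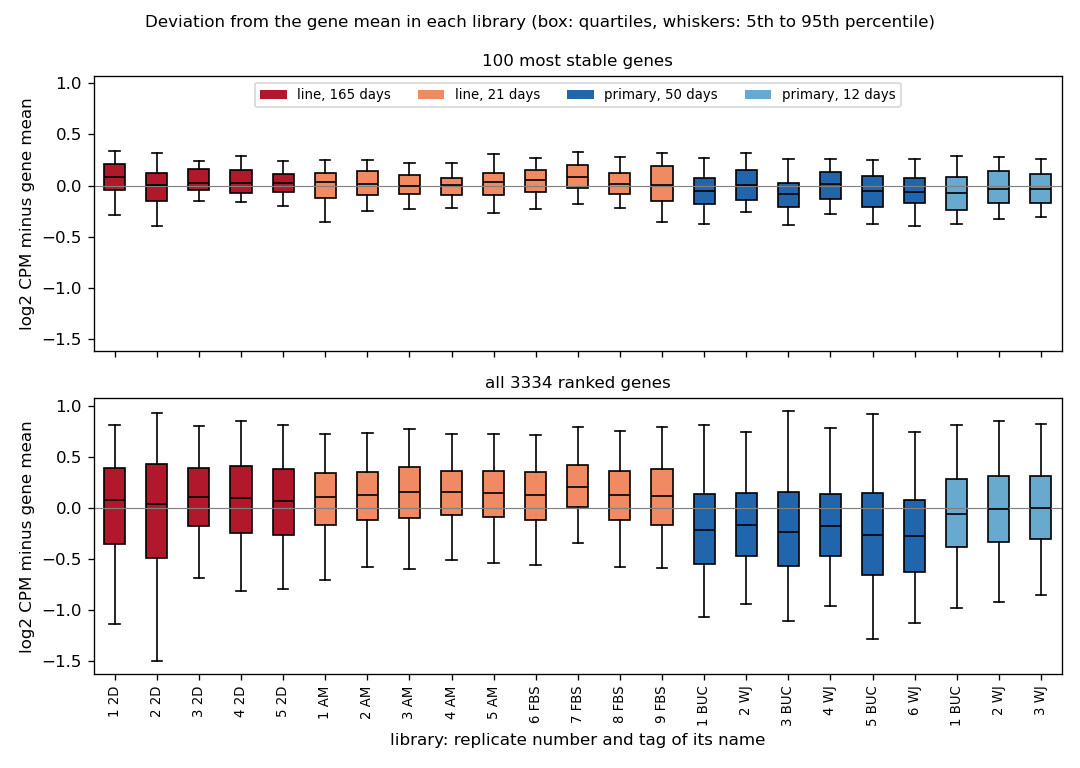
Log2 CPM minus the gene's own mean in each of the 23 libraries, for the 100 genes (top) and all 3334 ranked genes (bottom); box: quartiles, line: median, whiskers: 5th to 95th percentile. The medians of the 100 genes keep within -0.08 and 0.08, while those of all ranked genes lie lower in the 50-day primary cells than elsewhere.

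Within a group the 100 genes had a lower median spread than the ranked genes outside in all 4 groups. The median SD of log2 CPM within the 165-day line was 0.111 for the 100 genes against 0.181 outside, and within the 21-day line 0.138 against 0.229. Within the 50-day primary cells it was 0.162 against 0.249, and within the 12-day ones 0.062 against 0.073. The 12-day libraries, 3 in number, were the most alike, for the 100 genes and for the genes outside. The other groups hold the sets of libraries given above, and differences between those sets enter their spread. Replicate 1 of the 165-day line held the highest level of 15 of the 100 genes, the most of any library. The lowest level lay most often, for 11 genes each, in replicates 1 and 3 of the 50-day and replicate 1 of the 12-day primary cells.

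What variation the 100 genes had was still partly ordered by group. Differences between the 4 groups took 43.5% of the variance in the median gene, against 74.9% outside. This share was over 50% for 38 of the 100 genes, and for 2735 of all 3334 ranked genes. It was least, 2.62%, for rank 58, which averaged 110.9 ± 9.86 CPM in the line at 165 days and 117 ± 20.1 CPM at 21 days, against 118 ± 16.9 CPM in primary cells at 50 days and 113 ± 7.43 CPM at 12 days (SD, n = 5, 9, 6 and 3). It was greatest, 83.6%, for rank 99. The span between the highest and the lowest group mean was 0.32 log2 units in the median of the 100 genes, against 1.02 outside. The group with the highest mean was the 165-day line for 33 genes, the 21-day line for 25, the 50-day primary cells for 14 and the 12-day ones for 28, against 33.5%, 28.3%, 14.997% and 23.2% of all ranked genes in the same order.

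A principal component analysis of the 100 genes over the libraries gave no dominant axis, with 20.6%, 16.3% and 12.6% of the variance on the first 3 components. The first component still separated the 12-day primary cells, at -2.01 to -1.54, from all other libraries. It also split the 50-day primary cells by tag, with WJ at -0.73 to -0.65 and BUC at 0.003 to 0.049, while the 165-day line lay at 0.58 to 1.00 and the 21-day line at -0.04 to 0.76. On the second component the 50-day BUC libraries, at 1.29 to 1.45, lay above the 50-day WJ libraries, at 0.39 to 0.90, and the 21-day line lay at -0.96 to -0.34. The small shifts that the genes share thus followed the group and, at 50 days, the tag of a library.

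The line was set against primary cells, with both times given equal weight. Besides immortalization, the line and the primary cells differ in days of culture and in tags. These effects cannot be told apart. On library totals, the scale of the ranking, the log2 fold change was 0.09 in the median of the 100 genes and 0.23 in that of all ranked genes. On this scale 28 of the 100 genes were higher and 9 lower in the line (edgeR quasi-likelihood test, Benjamini-Hochberg adjusted p under 0.05 over all 11489 genes tested), where the share of all genes called was 46.1% higher and 22.8% lower. On the TMM scale 0 of the 100 were higher and 50 lower, where the share of all genes was 33.8% higher and 32.7% lower. At an unadjusted p under 0.05 that 0 also was 0, with edgeR on the size factors RLE it was 1, and with DESeq2 it was 2. Nothing is read from these counts, as the same libraries chose the genes.

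The 2 scales differ by a shift, which for the line against primary cells was 0.26 log2 units in the median of the 100 genes. The median log2 fold change over all tested genes was 0.03 on TMM and 0.30 on library totals. Relative to the median of all genes tested, the median of the 100 genes stood at -0.21 on either scale. Over all ranked genes the median was -0.03 on TMM and 0.23 on library totals. Of the 100 genes 9 passed the threshold in the same direction on both scales, 22 on neither, and 0 passed in opposite directions. This overlap was not counted over all genes tested, so nothing is read from it about the 100 genes.

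The largest rises on library totals, chosen after the values were seen, were those of ranks 92 and 99. Rank 99, ENSBTAG00000019735, was at 95.99, 97.8, 91.7, 96.1 and 93.2 CPM in the line at 165 days and 76.5 to 87.6 CPM with a median of 82.1 CPM at 21 days. The 50-day primary cells had 56.1 to 74.3 CPM with a median of 67.3 CPM, and those at 12 days had 67.3, 70.5 and 76.1 CPM. It was the only one of the 100 genes with every library of the line above every primary library, against 9.63% of all ranked genes, and the gap between the lowest library of the line and the highest primary library was under 1 CPM. The log2 fold change of rank 99 was 0.36 on library totals and 0.10, not past the threshold, on TMM. For 0 of the 100 genes every library of the line lay below every primary library, against 1.92% of all ranked genes.

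Rank 92, ENSBTAG00000009915, was at 305, 339, 269.8, 271 and 258 CPM in the line at 165 days and at 213 to 269.9 CPM with a median of 242 CPM at 21 days. At 50 days the primary cells had 199 to 226 CPM with a median of 217 CPM, and those at 12 days had 185, 199 and 199.8 CPM. The line and the primary cells overlapped between 213 and 226 CPM. Its log2 fold change was 0.36 on library totals and 0.11, not past the threshold, on TMM.

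The largest falls on library totals were those of ranks 100 and 24, likewise chosen after the values were seen. Rank 100, ENSBTAG00000005142, was at 1749, 1680.2, 1727, 1739.6 and 1855 CPM in the line at 165 days and at 1586 to 2195 CPM with a median of 1816 CPM at 21 days. In the 50-day primary cells it was at 1529 to 2281 CPM with a median of 1886 CPM, and in the 12-day ones at 2643, 2535 and 2385 CPM. The 12-day primary cells were above all other libraries and the other 3 groups overlapped, so the log2 fold change of -0.27 on library totals and -0.52 on TMM does not describe a difference from all primary cells alike.

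Rank 24, ENSBTAG00000010624, was at 383, 386, 375, 368 and 368 CPM in the line at 165 days and at 401 to 469 CPM with a median of 421 CPM at 21 days. Primary cells at 50 days had 429 to 565 CPM with a median of 505 CPM, and those at 12 days had 459, 464 and 461 CPM. All 5 libraries at 165 days were below all primary libraries, and the 21-day line overlapped with both primary groups. Its overlap with the 12-day primary cells rested on replicate 2, at 468.7 CPM. The rest of the 21-day line was at 401 to 430.3 CPM. Its log2 fold change was also -0.27 on library totals and -0.52 on TMM.

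Time in culture was compared within each kind of cell. Tags were not part of the fit, and WJ and BUC had 3 and 3 libraries at 50 days but 2 and 1 at 12 days. In primary cells, 50 against 12 days, 12 of the 100 genes were higher and 12 lower on library totals (edgeR adjusted p under 0.05), where the share of all genes was 16.5% higher and 29.6% lower. On TMM 24 were higher and 6 lower, where the share of all genes was 19.7% higher and 24.8% lower. The median log2 fold change of the 100 genes was 0.02 on library totals and 0.14 on TMM, which is 0.22 above the median of all genes tested on either scale. The median of all ranked genes was -0.18 on library totals and -0.06 on TMM. For 9 of the 100 genes the 6 libraries at 50 days exceeded each of the 3 at 12 days, against 17.2% of all ranked genes, and for 14 they lay below, against 37.5%. Without replicate 1 or without replicate 2 of the 12-day primary cells the 30 calls on TMM fell to 14. Over all genes tested the 5111 calls fell to 4209 and 4138. Without the 4 libraries of the 21-day line, which alter the scaling and the shared spread only, 42 of the 100 genes were higher and 1 lower. Of all 11082 genes tested in that fit, 2777 were higher and 2559 lower.

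In the line, 165 against 21 days, 16 of the 100 genes were higher and 10 lower on library totals (edgeR adjusted p under 0.05), where the share of all genes was 15.5% higher and 41.2% lower. On TMM 73 were higher and 0 lower, where the share of all genes was 27.9% higher and 28.6% lower. At an unadjusted p under 0.05 the count of lower genes on TMM was also 0, and with DESeq2 it was 0. The median log2 fold change of the 100 genes was 0.01 on library totals and 0.33 on TMM, which is 0.34 above the median of all genes tested on either scale. The median of all ranked genes, which pass the same floor, was -0.07 on library totals and 0.25 on TMM. For 4 of the 100 genes the 5 libraries at 165 days exceeded each of the 9 at 21 days on library totals, against 14.7% of all ranked genes, and for 2 they lay below, against 21.4%. Without replicates 1 and 2 at 165 days 49 of the 100 genes were higher on TMM, and without replicates 4, 5, 7 and 9 at 21 days 45 were, with 0 lower in both. Of all 11433 genes tested in the former, 2667 were higher and 2916 lower. Of all 11082 genes tested in the latter, 2967 were higher and 3585 lower.

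The difference of these time effects, line minus primary cells, was higher for 10 and lower for 6 of the 100 genes on library totals (edgeR adjusted p under 0.05), where the share of all genes was 19.4% higher and 28.2% lower. On TMM it was higher for 29 and lower for 1, where the share of all genes was 25% higher and 23.7% lower. Its median over the 100 genes was 0.01 log2 units on library totals and 0.22 on TMM. Over all ranked genes the median was 0.06 on library totals and 0.26 on TMM. Without replicates 4, 5, 7 and 9 of the 21-day line the difference was higher for 10 and lower for 13 of the 100 genes on TMM, with a median of -0.0039. Of all 11082 genes tested in that fit, it was higher for 2563 and lower for 3301. Leaving these 4 libraries out also moved the scale of the other groups. The TMM median for 50 against 12 days in primary cells, which holds none of them, went from 0.14 to 0.24. The parts of the libraries and of the scale in this change were not tested.

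**Figure D4:**
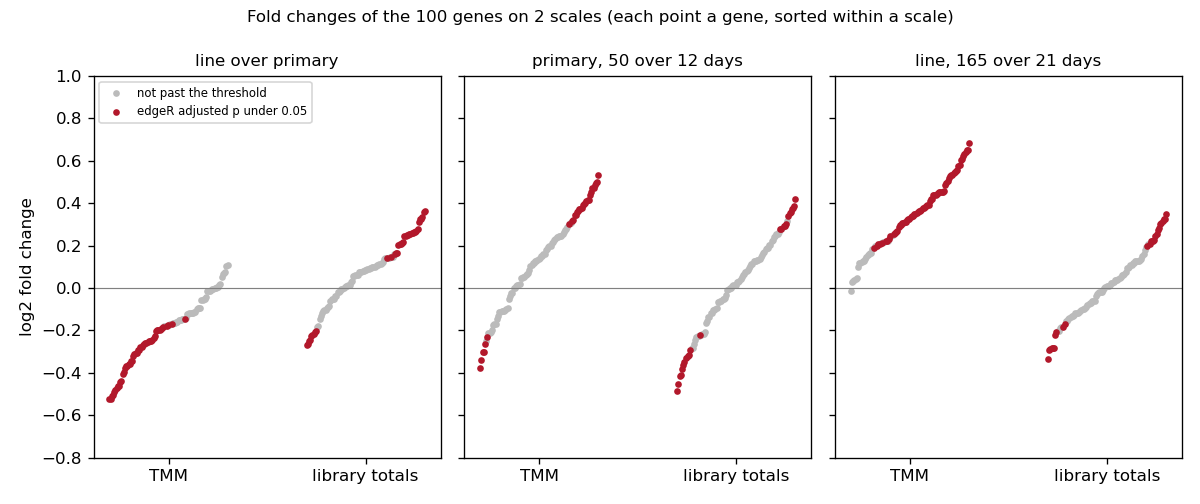
Log2 fold changes of the 100 genes in 3 comparisons on the TMM scale and on library totals, 1 point per gene sorted by value; red points have an edgeR adjusted p under 0.05. On TMM the medians lie at -0.18 for the line over primary cells, 0.14 for 50 over 12 days and 0.33 for 165 over 21 days, and on library totals at 0.09, 0.02 and 0.01.

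The tags within a group were compared as named. Among the 50-day primary cells WJ against BUC gave 4 higher and 3 lower of the 100 genes on TMM (edgeR adjusted p under 0.05 over 9075 genes tested), a sum of 7, where 24.3% of all genes were called. On library totals there were 7 higher and 3 lower, where 24.6% of all genes were called. The count of 7 on TMM was 0 to 4 when 1 of the 6 libraries was left out. Over all genes tested the count of 2201 then was 1594 to 2079. On library totals the log2 difference between the mean levels of WJ and BUC was above 0 for 64 of the 100 genes and below 0 for 36, with a median of 0.08. Of all 3334 ranked genes it was above 0 for 1847 and below 0 for 1487, with a median of 0.05. Within the 21-day line AM against FBS gave 0 of the 100 genes on TMM, where 0.425% of all genes were called, and 0 on library totals, where 0.406% were. At an unadjusted p under 0.05 there were 1 higher and 6 lower on TMM. With DESeq2 there was 1 at the adjusted threshold, where 200 of all 10597 genes tested were called.

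Which genes counted as most stable turned on the scale and on the cells ranked. With TMM in place of library totals 21 of the 100 genes stayed among the 100 with the smallest SD, and with RLE size factors 20 did. Their median rank was then 314 of 3521 and 342.5 of 3516 ranked genes. By both scalings 19 genes stayed. Ranked in primary cells alone 13 stayed, and in the line alone 25. The floor and the measure of spread altered the list less. A floor alters which genes can be ranked and not their SD. At a floor of 10 CPM 93 genes were kept, and with no floor 93. At a floor of 50 CPM 85 were kept, which were all the members over that floor. By the coefficient of variation 95 stayed, and by the ratio of the highest to the lowest library 74. With counting variance subtracted 90 stayed, with equal weight for the 4 groups 82, and with every library thinned to 1840606 counts 80. Leaving out 1 of the 23 libraries kept 85 to 96 genes, and 77 stayed whichever library was left out. Without both replicates 1 and 2 of the 165-day line 74 stayed, and without replicates 4, 5, 7 and 9 of the 21-day line 70.

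**Figure D5:**
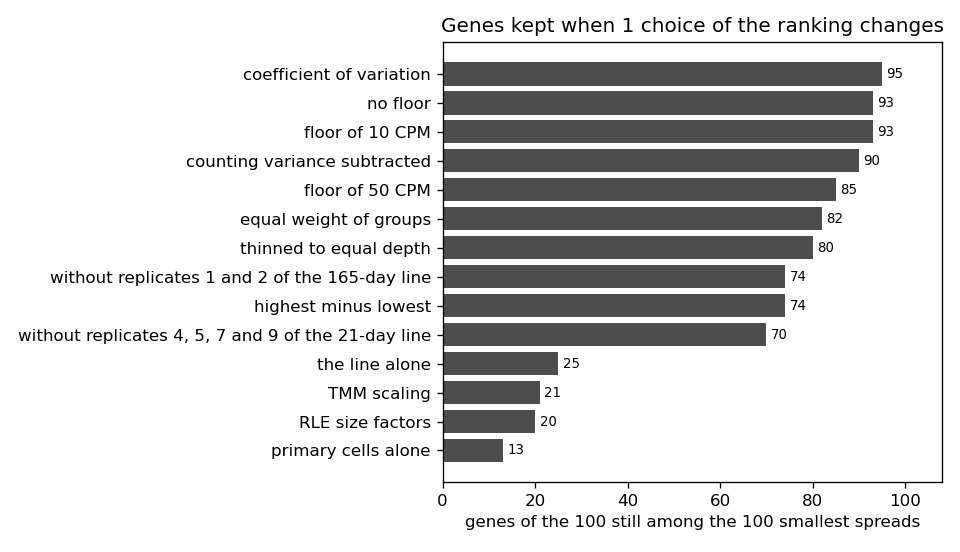
Number of the 100 genes that stay among the 100 smallest spreads when 1 choice of the ranking is changed. The bars are 21 and 20 for the scalings TMM and RLE, 13 and 25 for primary cells and the line ranked alone, and 70 to 95 for the others.

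Of the 100 genes 8 kept their place under the 33 settings that changed the scale, the floor or the measure, or left out 1 library. These 8, picked out after the values were seen, were ranks 2, 6, 10, 15, 31, 38, 45 and 71. The floor of 50 CPM dropped genes under it whatever their spread, among them ranks 1, 30 and 44, which stayed under all the other settings. Under TMM, RLE, equal weight of the groups and thinned depth together 13 genes stayed. Of the 8 genes 7, all but rank 71, also stayed without the 2 libraries of the 165-day line and without the 4 of the 21-day line, while 2 stayed in primary cells alone and 4 in the line alone. Rank 45, ENSBTAG00000014460, had rank 6 by TMM and rank 1 by RLE. It was at 111.7, 99.4, 106.8, 104.4 and 104.4 CPM in the line at 165 days and 111 to 136 CPM with a median of 118 CPM at 21 days. The 50-day primary cells had 88.4 to 95.8 CPM with a median of 93.7 CPM, and those at 12 days had 120.6, 114 and 119 CPM. On library totals the 50-day primary cells were thus below all other libraries, the 12-day ones lay within the range of the 21-day line, and differences between groups took 82.4% of the variance.

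Rank 6, ENSBTAG00000000712, averaged 86.0 ± 4.96 CPM in the line at 165 days and 94.6 ± 6.97 CPM at 21 days, against 81.5 ± 5.87 CPM in primary cells at 50 days and 81.5 ± 3.92 CPM at 12 days (SD, n = 5, 9, 6 and 3). Its 4 groups overlapped. Rank 31, ENSBTAG00000003500, averaged 63.1 ± 5.18 CPM in the line at 165 days and 72.8 ± 5.62 CPM at 21 days, against 62.5 ± 7.59 CPM in primary cells at 50 days and 59.8 ± 6.63 CPM at 12 days (SD, n = 5, 9, 6 and 3). Rank 38, ENSBTAG00000017825, averaged 303 ± 24.3 CPM in the line at 165 days and 345 ± 48.4 CPM at 21 days, against 284 ± 16.9 CPM in primary cells at 50 days and 303 ± 14.5 CPM at 12 days (SD, n = 5, 9, 6 and 3). All 3 had their highest mean in the 21-day line, the group of the largest TMM factors.

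Ranks 10 and 15 were lowest in the 50-day primary cells. Rank 10, ENSBTAG00000009509, averaged 295 ± 9.0 CPM in the line at 165 days and 299 ± 27.3 CPM at 21 days, against 255 ± 14.9 CPM in primary cells at 50 days and 319 ± 20.5 CPM at 12 days (SD, n = 5, 9, 6 and 3). Rank 15, ENSBTAG00000006134, averaged 338 ± 21.7 CPM in the line at 165 days and 376 ± 25.0 CPM at 21 days, against 310.5 ± 8.65 CPM in primary cells at 50 days and 404 ± 19.9 CPM at 12 days (SD, n = 5, 9, 6 and 3). For both genes the 50-day libraries had their highest level below the lowest at 12 days. Rank 71, ENSBTAG00000019161, averaged 164 ± 14.99 CPM in the line at 165 days and 178 ± 15.5 CPM at 21 days, against 147 ± 12.7 CPM in primary cells at 50 days and 129 ± 6.90 CPM at 12 days (SD, n = 5, 9, 6 and 3). It had the largest log2 fold change of the 8 between the line and primary cells on library totals, 0.31, and 0.05 on TMM.

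Whether stability in 1 kind of cell held in the other was read in libraries that had no part in the choice. Ranked in the 9 primary libraries alone, the 100 genes of smallest spread had SDs of 0.0429 to 0.121. Of these, 83 also reached 20 CPM in all 14 libraries of the line, where their median SD was 0.344, against 0.331 for all 4131 genes ranked there. In the line's ranking 38 of the 83 came in the steadier part, under the median, and 2 were among its own 100. The 100 genes chosen in the line, with SDs of 0.0675 to 0.124, had 92 members ranked in primary cells, with a median SD of 0.278 against 0.340 for all 3985 genes ranked there. There 67 of the 92 were under the median, and 2 were among the 100 of the primary cells. Over the 3334 genes ranked in all cultures the SDs in the line and in primary cells had a rank correlation of 0.19, across genes, which are not independent replicates and share depth and abundance in both sets.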

How the data were processed

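Bulk MARS-Seq was run on RNA from 23 samples, per the labels' protocols. The tools named are STAR, cutadapt, DESeq and HTSeq, and the genome build is ARS-UCD1.2, per the submitters' processing notes. Their settings, the annotation release, strand use and use of molecular identifiers are unknown here. The deposited table held whole-number counts per gene, not normalized, for 16094 Ensembl IDs. Since strand use is unknown, reads of overlapping or antisense genes and of near-identical copies may be mixed. If identifiers were not collapsed, counting errors are too small.

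CPM, the ranking and the measures of spread were computed from these counts with Python 3.11.15, numpy 2.4.6 and pandas 2.3.3. Comparisons were fitted on the whole table with edgeR 4.0.16 in R 4.3.3 (estimateDisp, glmQLFit, glmQLFTest, filterByExpr, TMM), Benjamini-Hochberg adjusted at 0.05. All 23 libraries entered 1 fit with 4 groups for kind of cell and time, and WJ against BUC (6 libraries) and AM against FBS (9 libraries) were fitted within their group. Each fit was first tested on simulated data. Over 64 pairs of libraries within a group, chi-square per degree of freedom was at least 2.85, so none was taken for a repeat and every library was counted once. Alternatives were DESeq2 1.42.0, RLE size factors, library totals, no filter, glmTreat against a fold of 1.2, a replicate block, other ways to rank, and leaving out each library or, added later, a set of libraries.

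The 100 genes, the gene lists and the tests were chosen with earlier results of these data known. No ID was matched to a symbol, so the 22 gene lists and the marker check could not be run and no sequence is shown. The rule for named genes then left the 2 of smallest SD; the 8 kept under 33 settings and the 4 of largest fold change were named after their values were seen.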

Additional observations from a re-analysis of the deposited data

Results flagged for a closer look

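Among the CPM of the named genes and the library measures reported, 2 of 45 groups of 5 to 9 libraries held a library far from the others of its group by Dixon's criterion, and 15 of 300 did over all 100 genes, where chance flags about 1 in 20. ENSBTAG00000017825 was at 346.4 CPM in replicate 1 of the 165-day line, with the other 4 libraries at 289 to 295.7 CPM. ENSBTAG00000010624 was at 468.7 CPM in replicate 2 of the 21-day line, with the other 8 at 401 to 430.3 CPM.

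For 6 of the named genes the time effect in the line (165 over 21 days) and that in primary cells (50 over 12 days) differed on the TMM scale (edgeR quasi-likelihood test of the difference, adjusted p under 0.05). Of all genes tested 25% were called higher and 23.7% lower, and nothing is read from the count of 6. The difference in log2 fold change was 0.5154 for ENSBTAG00000009509, 0.4276 for ENSBTAG00000006134, 0.3508 for ENSBTAG00000014460, 0.3515 for ENSBTAG00000009915, 0.5242 for ENSBTAG00000019735 and 0.5149 for ENSBTAG00000005142. On library totals these were 0.30, 0.23, 0.14, 0.13, 0.31 and 0.30, in the same order. Without replicates 4, 5, 7 and 9 of the 21-day line the difference was higher for 10 and lower for 13 of the 100 genes on TMM, against 29 and 1 with them. Of all 11082 genes tested without them, 2563 were higher and 3301 lower. The TMM factors move with the groups, and their part in the differences was not tested beyond this change of scale.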

How the results depend on the processing

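Of the 100 genes, 21 kept their place by TMM, 20 by RLE, 13 in primary cells alone, 25 in the line alone, and 85 to 96 without 1 library. Without replicates 1 and 2 of the 165-day line 74 did, and without replicates 4, 5, 7 and 9 of the 21-day line 70, both added after seeing the data. For the line against primary cells the 50 members called on TMM became 15 against a fold of 1.2 (glmTreat) and 40 to 59 without 1 library. Over all genes tested the 7635 called became 6253 and 7230 to 7643, in the same order. For 50 against 12 days the 30 called became 48 with DESeq2, 7 with glmTreat and 14 to 32 without 1 library. Over all genes tested the 5111 called became 5221, 4238 and 4138 to 5227, in the same order. For 165 against 21 days the 73 called became 26 on library totals, 34 with glmTreat, 45 without those 4 libraries and 59 to 73 without 1 library. Over all genes tested the 6485 called became 6513, 5385, 6552 and 6004 to 6568, in the same order. For the difference of the time effects the 30 called became 16 on library totals, 17 with glmTreat, 19 with the replicate block and 22 to 31 without 1 library. Over all genes tested the 5598 called became 5479, 5062, 5250 and 4948 to 5650, in the same order. For WJ against BUC the 7 called became 4 with DESeq2, 3 with no filter, 0 with glmTreat and 0 to 4 without 1 library. Over all genes tested the 2201 called became 1978, 2460, 1641 and 1594 to 2079, in the same order. For AM against FBS the 0 called became 1 with DESeq2 and stayed 0 without any 1 library. Over all genes tested the 45 called became 200 with DESeq2 and 6 to 46 without 1 library.

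The line over primary cells had a log2 fold change below 0 on TMM, and on library totals one of 0.063 for ENSBTAG00000010598, 0.15 for ENSBTAG00000000712, 0.056 for ENSBTAG00000009509, 0.010 for ENSBTAG00000006134, 0.15 for ENSBTAG00000003500, 0.14 for ENSBTAG00000017825 and 0.12 for ENSBTAG00000014460. These values all lie under the shift of 0.26 between the scales.

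Replicate numbers did not pair the samples across the 4 groups. Of 25 same-numbered pairs 3 had deviations with a correlation over 0.1, against 27 of 164 pairs with different numbers. Of 3 pairs of WJ and BUC with the same P number, 0 had. Of 4 pairs of AM and FBS that share a number in their names, 3 had, with correlations between -0.48 and 0.491. Whether AM and FBS libraries are paired is thus not settled. With these numbers as a replicate block, each in its own fit, the counts were 46, 22, 63, 19, 6 and 0. They follow the order of the comparisons above. The counts over all genes tested, in the same order, were 7300, 4608, 6067, 5250, 2037 and 0. The count over all genes for AM against FBS was 0, against 45 without the block. Depth limits the ranking, as 80 of the 100 genes stayed when every library was thinned to equal depth. Ranks 1 and 9 had over 50% of their variance at the size of counting error, and rank 4 had 49.8%.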
